A study of Mus musculus with 12 samples.

Results

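The response of the wild-type mouse liver to a high-cholesterol diet was taken from 6 of the 12 arrays of the series, chosen by the titles of the samples. Livers of 3 wild-type males on a normal chow without cholesterol were compared with livers of 3 wild-type males on a high-cholesterol (Paigen) diet containing 1.25% cholesterol. The diets were compared as wholes, so effects of cholesterol and of any other component of the diet cannot be told apart. All mice were 8 weeks old at the start and were fed for 9 weeks, and the labels give no strain. The other 6 arrays came from Lats2-CKO males on the same 2 diets (3 each). The labels also call this line Lats2-KO and do not say in which cells Lats2, a kinase of the Hippo pathway, was lost. Total RNA (250 ng) of each liver was labelled and put on a single-colour Affymetrix array. Values are log2 expression as deposited, 1 array per mouse, and a difference of 1 is a 2-fold difference.

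Hepatocytes make cholesterol through a long enzyme pathway whose genes are switched on by the transcription factor SREBP2 when sterols in the endoplasmic reticulum (ER) run low. Surplus cholesterol is oxidised to sterols that activate the nuclear receptor LXR, which raises the exporters Abcg5 and Abcg8, and it can be converted to bile acids, which repress their own synthesis. The ER of the hepatocyte also folds the plasma proteins the liver secretes, with the help of chaperones whose genes respond to the folding load. Macrophages, including the resident Kupffer cells, take up lipid in the fatty liver.

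The arrays fell into a set with higher medians over all probe sets (3.48 to 3.49) and a set with lower medians (3.42 to 3.43). Normal-diet arrays 1 and 2 and high-cholesterol array 1 were in the higher set, and the other wild-type arrays were in the lower set. Normal-diet array 3 stood apart from its label. Its correlation over all genes was 0.981 on average with the other normal-diet arrays and 0.987 with the high-cholesterol arrays. It was kept as labelled, and the comparison was made with all 6 arrays and again without it, as 3 high-cholesterol against 2 normal-diet arrays. Many gene list medians and some single genes are given both ways. None of the 18 hepatocyte identity genes measured passed the test, and their median change was -0.020 with all arrays and 0.0078 without array 3. In RNA of a whole liver, fewer cells of a type and less RNA per cell cannot be told apart.

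With all 6 arrays, limma called 0 of 22180 genes (0%) at an adjusted p under 0.05, while 2349 genes had an unadjusted p under 0.05 and the smallest adjusted p was 0.205. The 3 high-cholesterol arrays lay above the 3 normal-diet arrays for 1103 genes (4.97%) and below them for 1955 genes (8.81%). Without normal-diet array 3, 175 genes rose (0.789%) and 341 fell (1.54%). In what follows, rose and fell refer to this second fit, and without a further note so do the changes, standard errors and adjusted p-values. Array 3 was set aside because its values lay with the high-cholesterol arrays, which is the outcome compared, so these p-values are conditional on that choice and are not evidence independent of it. A change of at least 2-fold was found for 84 of the genes that rose and 140 of those that fell. The count of 516 was 42 when normal-diet array 1 was also left out, 111 without normal-diet array 2, 396 without high-cholesterol array 1, 243 without array 2 and 405 without array 3 of that diet. When normal-diet array 1 or 2 was left out, the normal diet was represented by 1 array, assumed to vary like the other groups.

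Only 28 of the 516 genes passed with each of these 5 arrays left out in turn. Genes of this kind included Sqle, Cyp8b1, Abcg5 and Abcg8 of sterol metabolism and Hspa5, Creld2, Sdf2l1, Calr, Derl3, Lman2, Gmppb and Pdia5 of the ER and its export route. The others with a standard gene name were Cyp2b9, Cyp3a59, Igsf23, Dsg1c, Paqr9, Susd4, Mme, Epha2, Cdk2ap2, Fam89a, Klhl24, Lhpp, Med29, Rc3h1 and Septin11. All other calls below were lost when at least 1 of the 5 arrays was left out. With the array set as a block, 263 of the 516 genes passed, among them Sqle (adjusted p = 0.000672), Creld2 (0.000673) and Hspa5 (0.00128). Calls lost under that block included Cyp7a1, Mvd, Msmo1, Nsdhl and Lpl of lipid metabolism, Ddit3, Ppib, Ssr2, Psmc4 and Psmd2 of protein folding and turnover, and Tbx3, Lect2 and Slc1a2 of the pericentral zone. Serpina1d, Abcb1a, Gstm3, Cyp2c55, Cyp2a12, Fmo2, Cep85, Cp, Vnn1, Fitm1, Apof, Ccl25, Acnat2, Esp36, Ptprj and Pla2g7 were lost as well. Their adjusted p-values with the block ran from 0.0544 (Ssr2) to 0.103 (Apof).

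Genes of cholesterol synthesis were low on the high-cholesterol diet. All 16 measured enzymes had a lower mean, with or without array 3, and 6 of them fell. The median change of the list was -0.86 with all arrays and -1.08 without array 3, beside -0.021 and -0.026 over all genes. For Fdps, which makes farnesyl diphosphate for both sterols and prenylated proteins, the normal-diet arrays 1 to 3 read 8.96, 7.57 and 5.53, and the high-cholesterol arrays 5.20, 5.60 and 5.45. Array 3 thus lay within the high-cholesterol range, and arrays 1 and 2 lay above it. Fdps fell by 2.85 ± 0.38 (SE, n = 3 and 2; adjusted p = 0.00721), while with all arrays its change was -1.94 ± 0.64.

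The later steps gave the same picture. Sqle, which forms the first oxygenated sterol precursor, read 7.97, 7.0 and 2.55 on the normal diet against 2.81, 2.88 and 2.82. Its fall of 4.65 ± 0.26 (adjusted p = 7.16e-05) was the largest in the list. Array 3 was the lowest of the 6 arrays for this gene. Nsdhl and Cyp51, which remove methyl groups from the sterol ring, and Msmo1, which acts between them, also fell. Cyp51 read 7.55, 6.76 and 5.80 against 4.73, 5.16 and 5.32, so its groups did not overlap even with array 3. Mvd, which makes the isoprene unit, fell by 1.03 ± 0.22 (adjusted p = 0.0427). Hmgcs1, an early enzyme of the pathway, did not pass: its change was -0.69 ± 0.40, with 9.23 on normal-diet array 1 and 7.72 to 8.02 on the other 5 arrays.

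Of the 8 genes of SREBP control and lipoprotein uptake, Srebf2 fell. It encodes SREBP2 and read 7.56, 6.93 and 6.09 against 5.26, 6.34 and 5.83, a fall of 1.43 ± 0.32 (adjusted p = 0.0484). Insig1, which holds SREBP in the ER, had a change of -0.71 ± 0.40 that did not pass. Srebf1, which drives fatty acid synthesis, read 5.98, 8.13 and 6.59 on the high-cholesterol diet against 5.53, 5.32 and 6.39. Its change of 1.48 ± 0.50 did not pass (adjusted p = 0.161).

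Sterol export and LXR target genes were high. Of 10 measured, 9 had a higher mean and Abcg5, Abcg8 and Cyp39a1 rose, with a list median of 0.92 with all arrays and 1.09 without array 3. Abcg8, the partner of Abcg5 in the pump that moves sterols into bile, read 7.59, 7.02 and 9.69 against 9.43, 9.58 and 9.53. Normal-diet array 3 was thus the highest of the 6 arrays. Abcg8 rose by 2.21 ± 0.23 (adjusted p = 0.00235) and Abcg5 by 2.0 ± 0.18 (adjusted p = 0.000962). With all arrays their changes were 1.41 ± 0.52 and 1.34 ± 0.42, and neither passed. Cyp39a1, an oxysterol hydroxylase, read 6.64, 6.57 and 9.83 against 9.55, 8.60 and 9.05. It is an enzyme and not an exporter, and it was counted in this list and not among the bile acid genes below. It rose by 2.46 ± 0.34 (adjusted p = 0.00917). Abcg1, a cellular sterol exporter, had a change of 2.26 ± 0.52 and an adjusted p of 0.0564. Abca1, which loads cholesterol onto HDL, moved little: 9.87, 9.94 and 9.83 against 10.32, 10.03 and 9.94, a change of 0.19 ± 0.14.

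**Figure D1:**
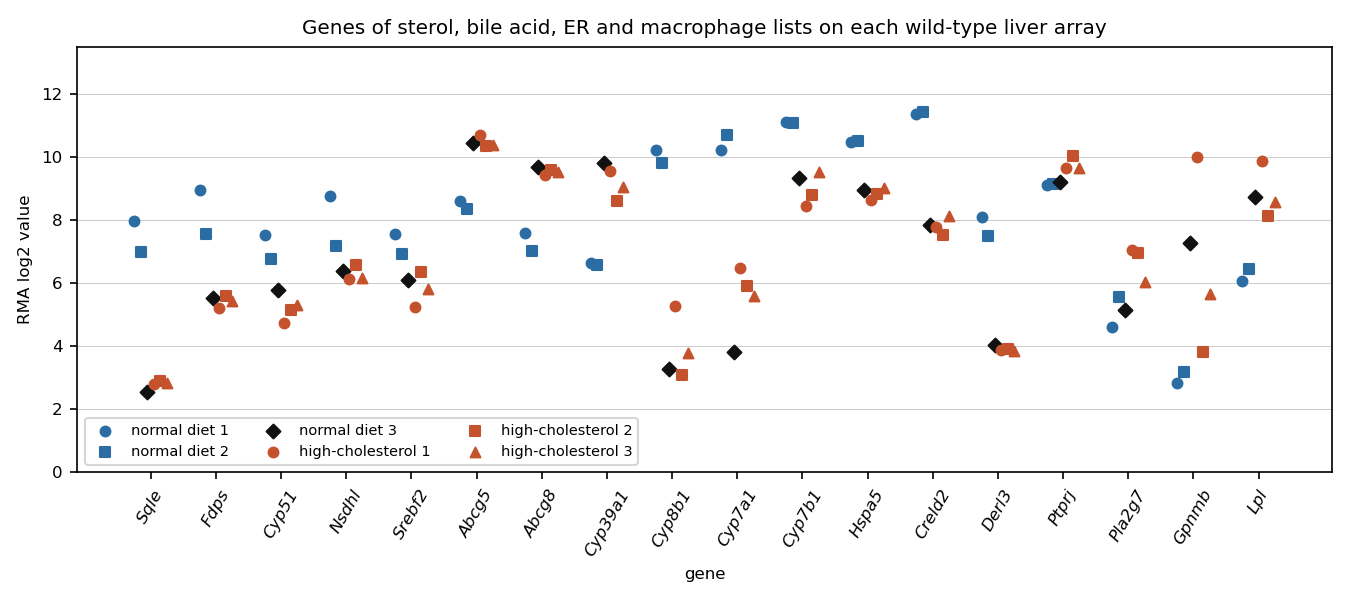
RMA log2 value (vertical axis) of 18 genes on the 3 normal-diet arrays (blue, and black for array 3) and the 3 high-cholesterol arrays (orange), 1 point per liver. Array 3 lies with the high-cholesterol arrays for Sqle, Fdps, Abcg8, Creld2 and Derl3, and with the normal-diet arrays for Ptprj and Pla2g7.

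Among 14 genes of bile acid synthesis, the sterol hydroxylases Cyp8b1, Cyp7a1 and Cyp7b1 fell, and the median of the whole list was -0.12 with all arrays and -0.11 without array 3. Cyp8b1, which directs synthesis to cholic acid, read 10.23, 9.83 and 3.29 on the normal diet against 5.27, 3.08 and 3.79. It fell by 5.98 ± 0.58 (adjusted p = 0.00178), against a change of -3.74 ± 1.45 with all arrays. Cyp7a1, the rate-limiting enzyme of the classical route, read 10.23, 10.69 and 3.80 against 6.48, 5.90 and 5.58, so that array 3 was below all the high-cholesterol arrays. Cyp7b1, which opens the alternative route, read 11.11, 11.07 and 9.33 against 8.44, 8.81 and 9.54. The other oxidase of that route, Cyp27a1, stayed between 10.54 and 10.95 on all 6 arrays, a change of -0.084 ± 0.14. Nr0b2, the bile acid-induced repressor also called SHP, was at 7.90, 8.39 and 9.10 against 8.61, 7.65 and 8.30, a change of 0.036 ± 0.37. None of the 11 transporters of bile acids and the canalicular membrane passed, with Abcb11, the bile salt export pump, at 0.68 ± 0.24 (adjusted p = 0.185).

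The ER folding machinery formed the next group. All 19 measured ER chaperones and folding enzymes had a lower mean on the high-cholesterol diet, with and without array 3, and 10 fell (Calr, Creld2, Dnajb11, Hsp90b1, Hspa5, Hyou1, Manf, Pdia3, Ppib and Sdf2l1). Their median change was -0.64 with all arrays and -0.87 without array 3. Many of these genes carry an ER stress element in their promoters, through which ATF6 and XBP1 act together with NF-Y, and the element was first defined on promoters of this family. The promoter of Hspa5, which encodes the main ER chaperone BiP, is shown whole, and the stretches around the element of other genes that fell are shown beside it. The windows run from 250 bases before to 50 bases after the annotated start (RefSeq, GRCm38.p6). The element was searched as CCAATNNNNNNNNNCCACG on both strands, and capitals mark it. Hspa5 is on the plus strand (chr2:34771840-34772139), with the element at positions -65 to -47 relative to the start.
Hspa5: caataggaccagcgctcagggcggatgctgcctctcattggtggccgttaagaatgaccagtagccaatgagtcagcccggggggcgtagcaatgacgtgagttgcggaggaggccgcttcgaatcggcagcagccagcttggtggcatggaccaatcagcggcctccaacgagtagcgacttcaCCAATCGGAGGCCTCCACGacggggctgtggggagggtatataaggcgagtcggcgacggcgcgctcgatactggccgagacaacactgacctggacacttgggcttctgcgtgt

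The stretches of the other genes hold the element with 20 bases on each side, read along the strand of the gene, so that a reverse match starts with CGTGG. They lie at chr15:88819500-88819558 (plus strand) for Creld2, chr10:75893222-75893280 (plus) for Derl3, chr19:6046512-6046570 (plus) for Syvn1 and chr8:84847055-84847113 (minus) for Calr. Hsp90b1 (minus strand) held the element at 2 places, of which the one at chr10:86705618-86705676 is shown.
Creld2: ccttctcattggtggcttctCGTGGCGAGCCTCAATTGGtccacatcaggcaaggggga
Derl3: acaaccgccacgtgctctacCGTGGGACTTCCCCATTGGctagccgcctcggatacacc
Syvn1: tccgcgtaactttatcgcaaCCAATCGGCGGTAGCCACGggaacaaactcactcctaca
Calr: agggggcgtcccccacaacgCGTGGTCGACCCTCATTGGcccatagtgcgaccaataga
Hsp90b1: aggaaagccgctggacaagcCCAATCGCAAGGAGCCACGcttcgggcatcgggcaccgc

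The element was found in 8 of the 17 ER chaperone genes with a window (47.1%), in 2 of 12 genes of ER-associated degradation (16.7%), and in 29 of all 16918 genes with a window (0.171%). These 29 genes include those of the chaperone and degradation lists, so their counts are not separate from the counts of those lists. Of the 29, 25 had a lower mean on the high-cholesterol diet without array 3, 9 fell and none rose. Their median change was -0.35. Over all 16918 genes, 9425 had a lower mean, 273 fell and 137 rose, with a median of -0.028. The 9 were Hspa5, Creld2, Calr, Hsp90b1, Derl3, Syvn1, Alg12, Acnat2 and Esp36. Alg12, which builds the sugar chain of glycoproteins, shares the same 19 bases with Creld2, since the windows of these genes overlap. Genes with the element also included Canx, a folding lectin (change -0.17 ± 0.090), and Ero1b, an oxidase of the ER (-0.43 ± 0.47), which did not pass. The shorter box CCAAT, which lies inside the element, was present in 16 of the 17 chaperone windows (94.1%) and in all 13 windows of cholesterol synthesis genes (100%), against 41.6% of all windows. TCACNCCAC, a sterol element, was found in 1 of those 13 (Hmgcs1) and in 1.43% of all windows.

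Hspa5 itself read 10.47, 10.53 and 8.97 on the normal diet against 8.65, 8.82 and 9.01. Normal-diet arrays 1 and 2 were above all others, and array 3 lay within the high-cholesterol range. The fall was 1.67 ± 0.13 (adjusted p = 0.000484), against a change of -1.17 ± 0.33 with all arrays. Creld2 and Sdf2l1, both small ER proteins that assist folding, changed most. Creld2 read 11.38, 11.42 and 7.83 against 7.77, 7.54 and 8.13 and fell by 3.58 ± 0.21 (12-fold; adjusted p = 8.00e-05). Sdf2l1 read 10.36, 10.22 and 6.50 against 6.16, 6.46 and 6.84 and fell by 3.80 ± 0.31. The abundant chaperones fell less: Calr, which encodes calreticulin, by 1.11 ± 0.11, and Hsp90b1, which encodes GRP94, by 0.98 ± 0.18 (adjusted p = 0.0245). Manf, an ER-resident secreted protein, was at 6.0, 5.63 and 4.46 against 4.45, 4.20 and 4.34, so its groups did not overlap even with array 3.

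Proteins that fail to fold are passed to ER-associated degradation. Of 14 measured genes of that route, 13 had a lower mean without array 3, and Derl3, Syvn1 and Sel1l fell. Derl3, a subunit of the export channel, read 8.11, 7.48 and 4.05 against 3.87, 3.91 and 3.84, a fall of 3.93 ± 0.41 (15.2-fold; adjusted p = 0.00235). Syvn1, the ubiquitin ligase HRD1, read 9.98, 9.86 and 7.39 against 6.16, 7.16 and 7.43. It fell by 3.01 ± 0.40 (adjusted p = 0.00721), and its partner Sel1l by 1.06 ± 0.14 (adjusted p = 0.00717). Herpud1, a further part of this complex, had a change of -0.55 ± 0.23 that did not pass.

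Genes of protein entry into the ER and of exit from it were lower by smaller amounts. Of 22 genes of translocation and glycosylation, 21 had a lower mean without array 3 and 4 fell, with a list median of -0.28. These were Ddost, a subunit of the oligosaccharyltransferase (fall of 0.95 ± 0.13, adjusted p = 0.00985), Srprb of the signal recognition receptor, Ssr2 of the translocon and the lectin Mlec. Of 28 genes of COPII vesicles and ER to Golgi transport, 24 had a lower mean. The groups of 12 genes did not overlap in the lower direction with all arrays (42.9% of the list, beside 8.81% of all genes). The 9 that fell were Copg1, Kdelr2, Lman2, Mcfd2, Sec23b, Sec24c, Sec24d, Tfg and Tmed3. Lman2, a cargo receptor for glycoproteins, read 9.95, 10.10 and 9.20 against 8.97, 8.98 and 8.99, and fell by 1.04 ± 0.11 (adjusted p = 0.00304). Kdelr2, which returns escaped chaperones to the ER, read 11.19, 11.12 and 10.61 against 10.14, 10.51 and 10.44. In both genes array 3 lay between the diets.

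**Figure D2:**
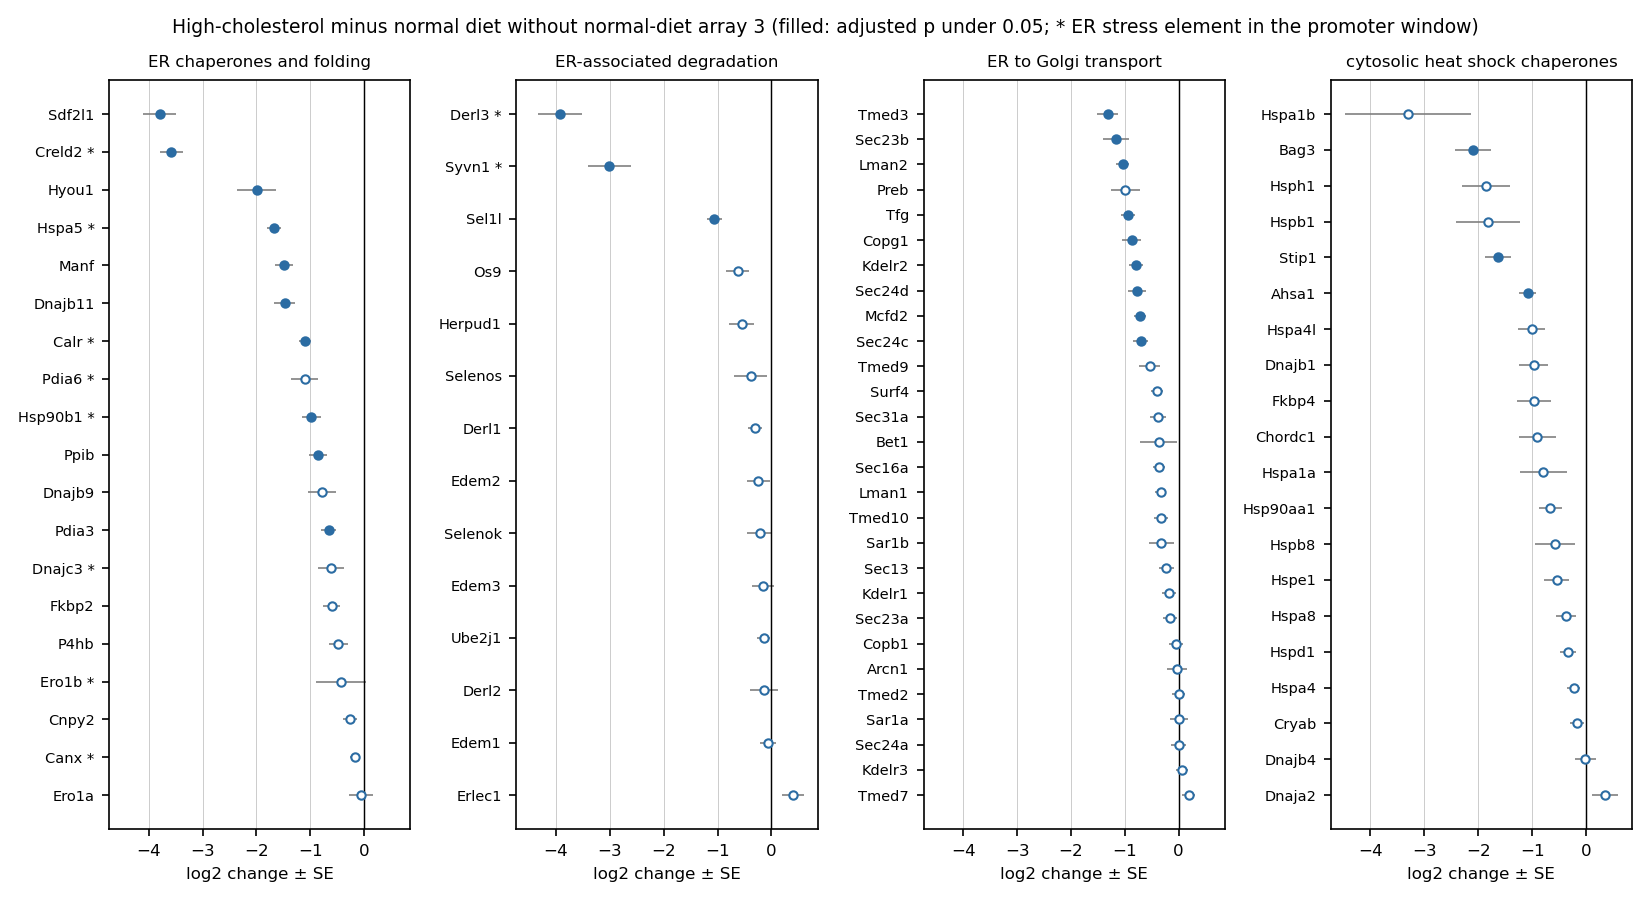
Log2 change, high-cholesterol minus normal diet without normal-diet array 3 (points, with standard error bars), for every measured gene of the lists of ER chaperones, ER-associated degradation, ER to Golgi transport and cytosolic heat shock chaperones. Filled points passed an adjusted p of 0.05 and asterisks mark genes with an ER stress element. All 19 ER chaperones lie to the left of 0.

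Regulators of the unfolded protein response did not move as a group. Of 15 measured, 6 had a higher and 9 a lower mean without array 3, and Ddit3 and Atf6b fell. Ddit3, which encodes the stress factor CHOP, read 6.34, 6.65 and 4.94 against 4.80, 4.40 and 4.24 and fell by 2.01 ± 0.37 (adjusted p = 0.026). Atf6b, a relative of ATF6, fell by 1.16 ± 0.22. Xbp1 read 10.32, 10.33 and 9.83 against 9.77, 10.06 and 9.87, a change of -0.42 ± 0.24 that did not pass. Chac1, an ATF4 target, had a higher mean (1.35 ± 0.53), also without passing.

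Genes of cytosolic chaperones and of the proteasome were also low. Of 20 heat shock chaperones, 19 had a lower mean, and Bag3, Stip1 and Ahsa1 fell, with a list median of -0.67 with all arrays and -0.85 without array 3. Stip1, which links HSP70 to HSP90, read 9.88, 9.77 and 8.32 against 7.58, 8.46 and 8.54, a fall of 1.63 ± 0.25 (adjusted p = 0.0128). Ahsa1, an activator of HSP90, fell by 1.08 ± 0.16. Hsph1, a nucleotide exchange factor of HSP70, was at 9.21, 9.04 and 8.00 against 6.26, 7.75 and 7.79 (-1.86 ± 0.44, adjusted p = 0.0605). High-cholesterol array 1 was the lowest in this list, with a median of -1.17 relative to normal-diet arrays 1 and 2, against -0.51 and -0.55 on the other 2. The heat shock element GAANNTTCNNGAA lay in 4 of 17 windows of this list (23.5%), against 0.632% of all windows. These were the windows of Chordc1, Hspd1, Hspe1 and Hsph1, so Bag3, Stip1 and Ahsa1 were not among the genes with the element.

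Of 30 proteasome subunits, 28 had a lower mean without array 3 and Psmb5, Psmc4, Psmd2 and Psmd3 fell, with a median of -0.40 (-0.29 with all arrays). Relative to normal-diet arrays 1 and 2, the median was -0.20 on high-cholesterol array 1, which is of the same array set, and -0.39 and -0.43 on arrays 2 and 3 of the other set. Psmc4 and Psmd2 did not pass with the array set as a block (adjusted p = 0.0743 and 0.0828). Psmb5, a catalytic subunit, read 11.10, 11.09 and 10.30 against 10.22, 10.46 and 10.29, a fall of 0.77 ± 0.11 (adjusted p = 0.0112). A family grouped by symbol after its values were seen showed similar counts. Of 71 mitochondrial ribosome proteins, 63 had a lower mean without array 3 and 11 fell (Mrpl45 by 0.66 ± 0.10), with a median of -0.37. The 66 cytosolic ribosome proteins, grouped in the same way, had 30 lower and 36 higher means and a median of 0.0091.

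Pericentral hepatocyte genes, which mark the zone around the central vein, were lower in 19 of 20 cases, and 8 fell (Ahr, Cyp7a1, Gulo, Lect2, Oat, Rhbg, Slc1a2 and Tbx3). The list median was -0.52 with all arrays and -0.74 without array 3. Rhbg, an ammonia transporter, read 6.51, 6.18 and 4.33 against 4.47, 4.25 and 3.82, a fall of 2.16 ± 0.27 (adjusted p = 0.00574). Oat, which breaks down ornithine, read 12.32, 12.13 and 10.26 against 10.90, 10.18 and 10.19, and fell by 1.80 ± 0.26. Tbx3, a transcription factor of that zone, read 7.78, 7.51 and 6.88 against 5.59, 5.64 and 4.98 and fell by 2.24 ± 0.42. In Tbx3 array 3 stayed nearer to the normal diet, and the groups did not overlap. Of 15 periportal genes, 12 had a higher mean without array 3 and none passed, with a median of 0.15.

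Cytochrome P450 and sex-biased genes held several of the largest rises. Cyp2b9, which is female-biased in mouse liver, read 4.08, 4.20 and 10.24 against 9.40, 10.15 and 9.50 and rose by 5.55 ± 0.29 (46.7-fold; adjusted p = 6.09e-05), against 3.51 ± 1.25 with all arrays, which did not pass. Cyp3a44 read 3.43, 3.69 and 5.63 against 5.75, 5.60 and 6.32 and rose by 2.33 ± 0.35 (adjusted p = 0.0128). In both genes array 3 was close to or within the high-cholesterol range. Cyp2c55 and Cyp2a12 also rose. Cyp2b10 and Cyp3a11, targets of the receptors CAR and PXR, had changes of 2.17 ± 0.71 and 0.69 ± 0.23 that did not pass, and high-cholesterol array 2 was low for Cyp2b10 (3.83, beside 6.54 and 6.26). These families hold near-identical members, so a probe set may read more than 1 of them. Among 18 female-biased genes, 3 rose (Cyp2b9, Cyp3a44 and Fmo2), while 11 had a lower mean in both fits and the list median was -0.10 with all arrays and -0.11 without array 3. Among 21 male-biased genes, Cyp7b1 and Susd4 fell and the median was -0.27 with all arrays and -0.65 without array 3. Relative to normal-diet arrays 1 and 2, it was -1.70 on high-cholesterol array 1, against -0.082 and -0.17 on arrays 2 and 3.

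The other genes with the largest changes had varied roles. Serpina1d, one of the alpha-1-antitrypsin genes, read 3.77, 3.51 and 11.88 against 11.71, 12.44 and 12.60. It rose by 8.61 ± 1.68 (adjusted p = 0.032), while normal-diet arrays of Lats2-CKO livers had 11.79, 4.86 and 4.57, so its level also differed within a diet. Its neighbour in the family, Serpina1c, had a change of 0.41 ± 0.17 that did not pass. Lpl, the lipoprotein lipase, rose by 2.61 ± 0.51, Abcb1a, a drug exporter, by 2.55 ± 0.50, Hsd17b6, a steroid dehydrogenase, by 2.53 ± 0.32, and the glutathione transferase Gstm3 by 2.11 ± 0.42. Igsf23, Dsg1c, Clec2h, Adam11 and Slc8b1 completed the 15 largest rises, at 2.14 to 3.89.

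Among the largest falls outside the lists above, Angptl8, an insulin-induced inhibitor of lipoprotein lipase, read 10.17, 10.28 and 7.61 against 7.64, 6.90 and 8.00. It fell by 2.71 ± 0.33 (adjusted p = 0.00482). Paqr9 read 9.98, 9.99 and 6.93 against 6.30, 7.12 and 6.68 and fell by 3.29 ± 0.21 (adjusted p = 0.000109). Nnmt, which methylates nicotinamide, read 7.62, 7.48 and 3.26 against 5.36, 4.51 and 5.08, so that array 3 lay beyond the high-cholesterol arrays. Slc17a9, a nucleotide transporter, fell by 2.62 ± 0.29 and Cep85, a centrosome protein, fell by 2.43 ± 0.43.

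Of 17 genes of fatty acid synthesis and desaturation, the elongases Elovl5 and Elovl6 fell. The groups of 7 of the 17 did not overlap in the lower direction with all arrays (41.2%, beside 8.81% of all genes), and the list median was -0.18 with all arrays and -0.11 without array 3. Elovl5 read 11.58, 11.28 and 10.72 against 10.40, 10.30 and 10.06, a fall of 1.17 ± 0.14 (adjusted p = 0.00482). Elovl6 read 9.18, 8.93 and 8.39 against 7.41, 7.82 and 7.02, and in both genes the groups did not overlap with array 3. Fasn and Scd1 did not pass (-0.55 ± 0.27 and 0.54 ± 0.26). Of 21 PPAR alpha targets, 18 had a lower mean with all arrays and 17 without array 3, and Vnn1 and Cpt2 fell. The list median was -0.30 in both fits, and 9 of the 21 did not overlap in the lower direction with all arrays (42.9%). Cpt2, which brings fatty acids into mitochondria, read 10.70, 10.63 and 10.25 against 9.89, 10.11 and 10.14. Cidec, a lipid droplet protein, was at 7.08, 7.43 and 6.62 against 5.97, 3.91 and 4.26, a change of -2.54 ± 0.60 that did not pass (adjusted p = 0.0602). Fitm1 was the lipid droplet gene that fell and Apof the apolipoprotein gene.

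General macrophage genes were higher on the high-cholesterol diet, and for this list normal-diet array 3 lay with its own group. All 30 general macrophage and phagocyte genes had a higher mean with and without array 3, and the groups of 19 did not overlap with all 6 arrays (63.3% of the list, beside 4.97% of all genes). The list median was 1.09 in both fits. Relative to normal-diet arrays 1 and 2, it stood at -0.063 on array 3 and at 1.29, 1.25 and 0.27 on the high-cholesterol arrays, so high-cholesterol array 3 was far lower than the other 2. Ptprj, a receptor phosphatase, read 9.12, 9.14 and 9.23 against 9.67, 10.03 and 9.66 and rose by 0.66 ± 0.12 (adjusted p = 0.026). Pla2g7, a phospholipase of lipoproteins, read 4.61, 5.57 and 5.16 against 7.05, 6.98 and 6.05 and rose by 1.60 ± 0.35 (adjusted p = 0.046). Neither passed with the array set as a block (adjusted p = 0.0639 for Ptprj and 0.0936 for Pla2g7). Cathepsin S (Ctss) read 7.30, 7.31 and 7.97 against 9.76, 9.39 and 8.30, a change of 1.85 ± 0.43 that did not pass (adjusted p = 0.0567). Cd68 read 6.82, 7.12 and 7.23 against 9.02, 7.84 and 7.03 (0.99 ± 0.52).

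Leaving out high-cholesterol array 3 while keeping all 3 normal-diet arrays gave 67 calls among 22180 genes, of which 65 were rises. Of the 30 general macrophage genes, C1qc, Ctss, Cyba, Laptm5 and Pla2g7 were among them. The array is singled out here for its low macrophage values, so these calls are not evidence independent of that choice. Whether this array held fewer macrophages was not tested.

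Markers of macrophage subtypes varied between the 3 high-cholesterol livers. Of 13 resident Kupffer cell markers, 10 had a higher mean with all arrays and 8 without array 3, and none passed. The groups of 3 did not overlap in the higher direction with all arrays (23.1%, beside 4.97% of all genes). The list median was 0.61 with all arrays and 0.51 without array 3. Clec4f, a lectin of Kupffer cells, read 7.72, 7.86 and 7.47 against 8.24, 8.41 and 8.24 (0.61 ± 0.13 with all arrays, 0.51 ± 0.13 without array 3). Cd5l, secreted by macrophages, read 8.39, 9.13 and 9.20 against 10.75, 11.64 and 9.45. Timd4, a receptor of long-lived Kupffer cells, overlapped, at 6.51, 6.89 and 5.82 against 6.93, 7.73 and 5.57. The 17 lipid-associated macrophage markers had medians of 1.86, 0.19 and 0.24 on the high-cholesterol arrays, and Lpl was the member that rose. Normal-diet array 3 had a median of 0.56 for this list, above high-cholesterol arrays 2 and 3. Gpnmb, a marker of lipid-laden macrophages, read 2.83, 3.17 and 7.28 against 10.02, 3.81 and 5.67, and Trem2, their lipid receptor, 3.22, 3.16 and 4.02 against 5.82, 3.32 and 3.41. High-cholesterol array 1 was the highest for both, and normal-diet array 3 was above at least 1 high-cholesterol array.

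**Figure D3:**
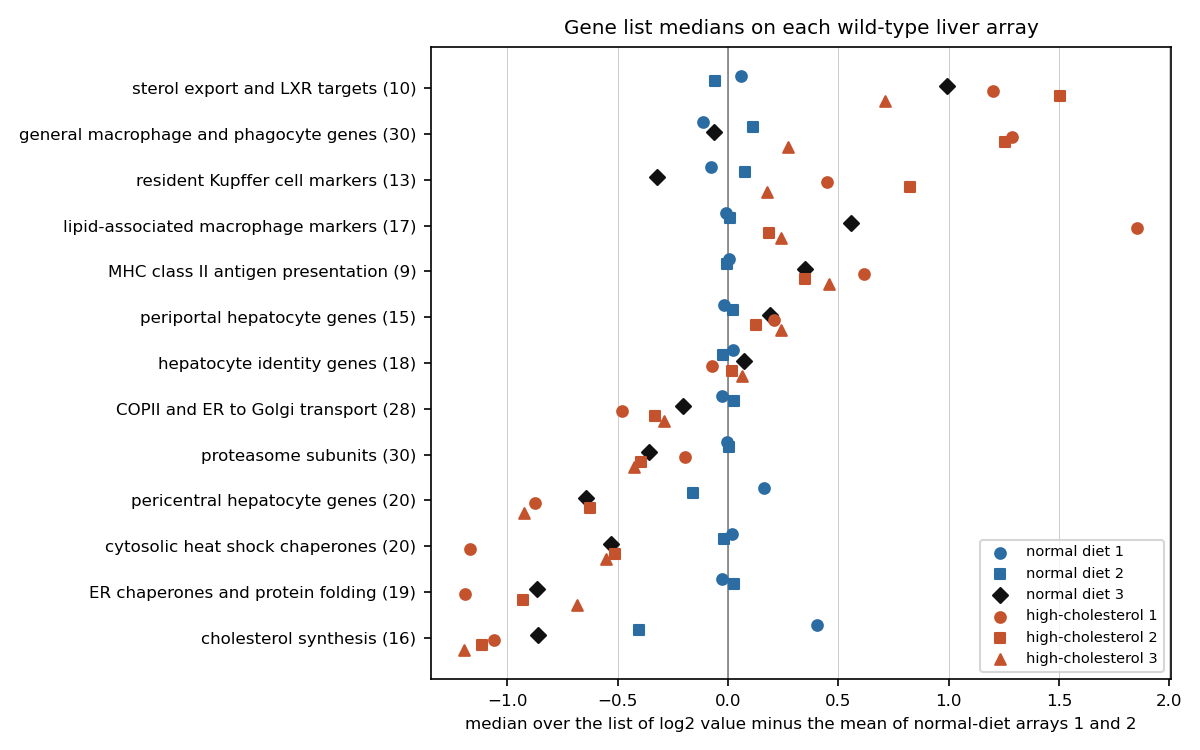
Median over each gene list of the log2 value minus the mean of normal-diet arrays 1 and 2 (horizontal axis), for each of the 6 wild-type arrays. The number of genes stands in brackets. Normal-diet array 3 (black) lies near the high-cholesterol arrays for cholesterol synthesis (-0.86) and ER chaperones (-0.87), and near 0 for general macrophage genes (-0.063).

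Calls in the other immune lists stand beside rises in 0.789% and falls in 1.54% of all genes. At these shares a short list may hold no call. All 9 genes of MHC class II presentation had a higher mean and none passed. H2-Aa read 5.79, 6.03 and 7.26 against 9.35, 6.32 and 7.30, with high-cholesterol array 1 the highest. Among 31 interferon-stimulated genes, Ifi204, a sensor of the interferon-inducible p200 family, read 5.88, 6.01 and 6.28 against 7.58, 7.75 and 7.07 and rose by 1.52 ± 0.20 (adjusted p = 0.00714). Ifi27 fell by 1.61 ± 0.27, and the median of that list was -0.034 without array 3 and 0.0028 with all arrays. The chemokine Ccl9 read 8.65, 8.55 and 9.84 against 9.85, 9.85 and 9.81 and rose by 1.23 ± 0.17 (adjusted p = 0.00795), and Ccl25 also rose. Ccl5 and Ccl6 did not overlap with all arrays but did not pass (1.65 ± 0.42 and 1.66 ± 0.43). Of the markers of B, T and NK cells, dendritic cells, monocytes and neutrophils, none passed.

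The median of 24 acute phase genes was 0.049 with all arrays and -0.093 without array 3. The member that rose was Cp, the copper carrier ceruloplasmin, by 0.56 ± 0.12 (adjusted p = 0.0422). Saa2 was scattered, at 11.61, 10.58 and 7.45 against 10.51, 7.71 and 8.60, and so was Lcn2, at 6.6, 6.49 and 5.39 against 8.56, 5.28 and 5.15. Of 37 stellate cell and fibrosis genes, 26 had a higher mean in both fits and none passed, with a median of 0.15 with all arrays and 0.24 without array 3. The median was 0.42, 0.21 and -0.092 on high-cholesterol arrays 1 to 3. Col1a1, the main fibrillar collagen, read 3.72, 3.57 and 3.94 against 4.39, 4.34 and 4.0 (0.60 ± 0.20, adjusted p = 0.163). Krt23, a keratin of ductular cells, rose by 1.5 ± 0.27. No gene passed among liver endothelial genes, complement and coagulation factors, circadian clock genes, nuclear receptors, p53 targets or insulin signalling and gluconeogenesis.

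With all 6 arrays, the genes of smallest unadjusted p differed from those above, since array 3 had to lie with its group. Besides Ifi204, Ptprj, Pla2g7 and Clec4f, the 10 rises were Atp1b3, Gpr137b-ps, Snord69, Prps2, Aim2 and Arhgap25. Aim2, a DNA sensor of myeloid cells, read 3.36, 3.26 and 3.49 against 4.45, 4.11 and 3.86 (0.77 ± 0.16). Arhgap25, a blood cell GTPase regulator, read 3.44, 3.64 and 3.66 against 5.17, 4.71 and 4.02. The 10 falls were Olfr784, Mirlet7f-2, Tfg, Eapp, Mlec, Mrpl45, Vnn1, Cdc34, Tomm7 and Mrps18b. Mlec, an ER lectin for glucosylated glycans, read 9.42, 9.17 and 8.72 against 7.81, 7.46 and 8.19, a change of -1.29 ± 0.23. Tfg, which organises ER exit sites, read 8.35, 8.29 and 7.96 against 7.58, 7.16 and 7.41 (-0.82 ± 0.13). Mrps18b and Tomm7, both mitochondrial, had changes of -1.01 ± 0.19 and -0.60 ± 0.11. None passed in this fit.

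The place of array 3 was measured for each of the 516 genes as its distance from the mean of normal-diet arrays 1 and 2, divided by the distance to the high-cholesterol mean. It is 0 where array 3 equals the other normal-diet arrays and 1 where it equals the high-cholesterol mean. The choice of the 516 genes did not use the values of array 3. That array was left out because it read like a high-cholesterol liver, so a place near 1 partly restates that choice. The place is also measured between the same group means by which the genes were chosen. The median place was 0.904, at 1.0 for the 175 genes that rose and 0.842 for the 341 that fell. Array 3 was past the midpoint for 463 of the 516 genes. It was below 0.25 for 12, namely Ifi204, Ptprj, Pla2g7, Aim2, Vnn1, Olfr784, Tomm7, Imp4, Ppat, Decr1 and 2 clone-named genes. Decr1 and Vnn1 are targets of PPAR alpha, and Ppat is the first enzyme of purine synthesis. By list, the median place of the genes that passed was 1.01 for cholesterol synthesis, 1.08 for sterol export, 0.996 for ER chaperones and 1.01 for pericentral genes. It was 0.097 for the 2 general macrophage genes, while Lpl of the lipid-associated macrophage markers had 0.952. What sets array 3 apart from its label was not tested.

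**Figure D4:**
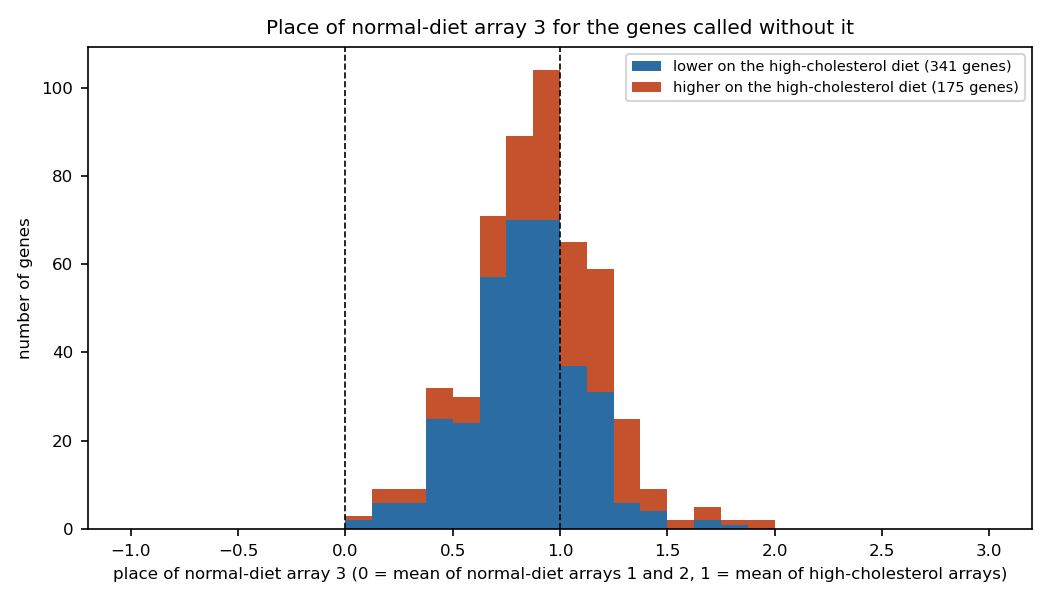
Number of genes (vertical axis) by the place of normal-diet array 3 (horizontal axis, without unit) for the genes that rose (orange) or fell (blue) without it. Dashed lines mark 0, the level of normal-diet arrays 1 and 2, and 1, the high-cholesterol level, and 463 of 516 genes lie above 0.5.

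The Lats2-CKO livers served to ask whether the wild-type response differed between genotypes. In the fit without wild-type normal-diet array 3, the diet comparison of Lats2-CKO livers (3 against 3 arrays) called 468 genes (2.11%), against 60 (0.271%) when all 12 arrays were fitted. It shares no array with the wild-type comparison, though both rest on 1 estimate of the spread, and the changes in Lats2-CKO were the same in either fit. Over all 22180 genes, the 468 calls were 222 rises and 246 falls. Of the 175 genes that rose in wild type, 162 had a change of the same sign in Lats2-CKO and 57 also rose there. For the 341 that fell, the counts were 315 and 106. The share of all genes with the same sign in both genotypes was not counted, so the sign counts have no background beside them. By the Lats2-CKO calls of the fit of all 12 arrays (28 rises and 32 falls), 8 of the 175 also rose and 5 of the 341 also fell. Hspa5, for example, changed by -1.24 in Lats2-CKO (adjusted p = 0.0011, and 0.128 with all 12 arrays), Fdps by -2.68 and Abcg5 by 1.88.

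The difference of the responses passed for 2 genes (0.00902%). Cyp2b9 rose by 5.55 in wild type and by 2.06 in Lats2-CKO, a difference of -3.49 ± 0.39 (adjusted p = 0.042). With all arrays its difference was -1.45 and did not pass (adjusted p = 0.98), nor did it without array 3 when the replicate number (0.106) or the array set (0.0723) was a block. Capn8, a calpain protease, changed by -0.58 in wild type and by -3.14 in Lats2-CKO, and its difference also passed with all arrays. Without array 3 it passed with the array set as a block (adjusted p = 0.0217) and not with the replicate block (0.0941). Angptl8 had changes of -2.71 and 0.69 (adjusted p of the difference 0.080), Igsf23 of 3.89 and 0.16 (0.146) and Cyp39a1 of 2.46 and 0.22 (0.353). These 3 differences did not pass. On the normal diet, Angptl8 read 10.17, 10.28 and 7.61 in wild type and 8.38, 7.53 and 7.91 in Lats2-CKO. Cyp39a1 read 6.64, 6.57 and 9.83 in wild type and 8.8, 8.2 and 8.6 in Lats2-CKO on that diet.

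**Figure D5:**
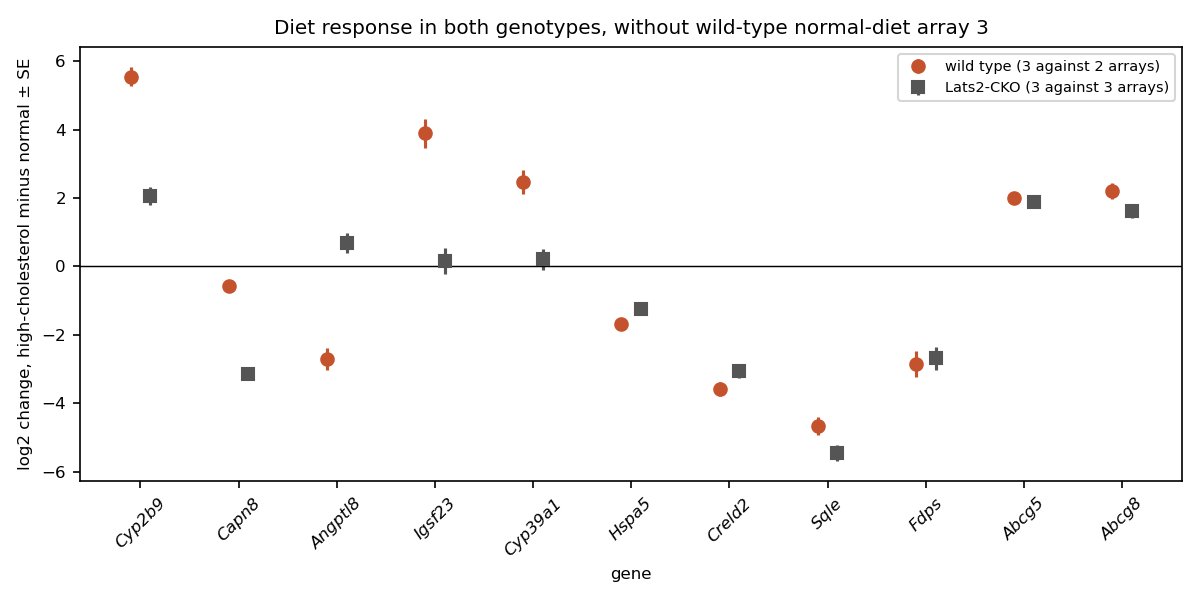
Log2 change, high-cholesterol minus normal diet (vertical axis, ± SE), of 11 genes in wild type (orange circles, without normal-diet array 3) and Lats2-CKO (grey squares). The points of Hspa5, Creld2, Sqle, Fdps, Abcg5 and Abcg8 lie on the same side of 0 in both genotypes, while those of Angptl8 lie on opposite sides.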

How the data were processed

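Liver RNA of 12 male mice was measured on single-colour Affymetrix arrays, and the 6 wild-type arrays are described. Per the submitters' processing notes, the authors made the values with RMA in Partek 6.6. RMA corrects background, normalises quantiles and summarises probes, and it pulls small differences of dim probe sets together. The deposited values were read as log2, from their range of 1.94 to 14.16. The sources used here give no RMA settings, probe set filters or genome build. The number of arrays limits the precision, and scanner signals were not used here.

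Of 41345 probe sets, 23521 had 1 gene symbol in the platform annotation, 1814 had several and 16010 had none. The brightest probe set by mean stood for each of the 1082 genes with more than 1, which left 22180 genes. RefSeq tables (GRCm38.p6) gave current symbols for 23328 probe sets and promoter windows for 16918 genes.

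Limma 3.58.1 in R 4.3.3 was fitted with 4 group means over all 12 arrays, and over 11 without wild-type normal-diet array 3. The Benjamini-Hochberg adjustment of p-values covered all genes (threshold 0.05), and errors are standard errors of that fit. The fit was tested on simulated data. The labels say biological replicate, and p-values measure the spread between these mice.

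The genes in the text came from a rule. With all arrays it took the 10 rises and 10 falls of smallest unadjusted p, and without array 3 the 15 largest rises and 15 largest falls that passed. Groups could not overlap, the higher mean had to be above the 30th percentile of all values (3.05), and predicted, Rik and clone-named genes were left out. Up to 5 members of smallest p in each of 50 gene lists (1016 of 1115 entries measured) and 34 genes of sterol, ER and inflammatory biology were added. Further members that passed and Capn8, Alg12, Acnat2, Esp36, Imp4, Ppat, Decr1, Gmppb and Pdia5 with the other genes that passed every loss of an array were picked once their values were known. The comparison, lists, rule and tests were chosen with earlier results of these data known. Lists are described by counts and medians without a test.

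Alternatives were a fit of wild-type arrays alone, a replicate block, an array set block, a trended and robust prior, array weights, dim genes left out, the mean of probe sets, quantile normalisation and each array left out.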

Additional observations from a re-analysis of the deposited data

Results flagged for a closer look

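The diet response differed between genotypes for 2 genes by the interaction term of limma. For Cyp2b9, Lats2-CKO minus wild type was -3.49 ± 0.39 without wild-type normal-diet array 3 (adjusted p = 0.042), and with all arrays the difference did not pass (adjusted p = 0.98). For Capn8, the difference was -2.56 ± 0.21 without that array (adjusted p = 0.0062) and -2.70 ± 0.23 with all arrays (adjusted p = 0.0029). Capn8 read 3.71, 3.58 and 3.23 on normal-diet arrays of wild type and 6.40, 6.66 and 6.14 on those of Lats2-CKO, and all 6 high-cholesterol arrays were between 2.90 and 3.37. Cyp2b9 read 4.08, 4.20 and 10.24 on normal-diet arrays of wild type and 8.2, 8.2 and 7.8 on those of Lats2-CKO. No criterion for outlying samples was applied to groups of 3 arrays.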

How the results depend on the processing

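With all arrays, the count of wild-type diet genes was 0 in the fit of wild-type arrays alone, with the replicate block, the array set block, the trended and robust prior, dim genes left out, the mean of probe sets and quantile normalisation. Array weights gave 13, and leaving out 1 array gave 0 to 516. Without normal-diet array 3, the count of 516 was 239 for wild-type arrays alone and 1213 with array weights, and leaving out 1 further array gave 42 to 405. The array set block gave 374 (77 higher and 297 lower), the robust prior 446, dim genes left out and the mean of probe sets 530 each, and quantile normalisation 574. Same-numbered arrays of the diets had deviations that correlated at 0.0541, 0.0613 and 0.0594, and each of the 6 arrays lay closest to its own number, a hint from the data and not from the design. The numbers were therefore not taken as pairs, and the replicate block gave 363 calls. The genotype difference, 1 gene with all arrays, was 2 with the array set block, 2 with the robust prior and 3 without dim genes (1 to 2 with 1 array left out). Without array 3 its count of 2 was 0 with the replicate block, 1 with the array set block, 5 with the robust prior and 4 without dim genes (1 to 3 with 1 array left out). At 0 calls with the block, the cause was not tested.

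Medians of 3 lists reversed. The erythrocyte list, of 3 genes, had 0.080 with all arrays, -0.25 without dim genes and -0.16 to 0.13 with 1 array left out (lowest without high-cholesterol array 2). Without array 3, the female-biased list had -0.11, but 0.012 in the higher array set alone, and the ductular list 0.066, but -0.022 with the array set block. A further 32 of 50 list medians moved by more than the replicate spread in the higher array set alone and 18 with the array set block. In the former, ER-associated degradation went from -0.28 to -0.63, the proteasome from -0.40 to -0.20 and lipid-associated macrophage markers from 0.99 to 1.86. The cause was not tested. The set of arrays overlaps the diets, and 2 normal-diet arrays remain without array 3, which limits every value of that fit.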
